A study of Arabidopsis thaliana with 28 samples.

Results

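The core of abscisic acid signalling was followed through 10 genes of Arabidopsis thaliana, out of 30901 in the deposited count table. Of these, 7 encode PP2C protein phosphatases of the group that acts in this pathway (ABI1, ABI2, HAB1, HAB2, PP2CA, HAI1 and HAI2). The other 3 encode SnRK2 protein kinases that the hormone activates (SNRK2.2, SNRK2.3 and SNRK2.6, the last also called OST1). The genes were picked by locus identifier, and all 10 had enough counts to be tested.

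RNA was sequenced from nuclear and cytoplasmic fractions of rosettes of 14-day-old plants, for the mutant mos11 and the wild-type accession Col-0. MOS11 is a small RNA-binding protein that acts with the helicase UAP56 in export of mRNA from the nucleus, and the study looked for export defects in its mutant. The 4 groups were mos11 nuclei (5 libraries), Col-0 nuclei (4 libraries), mos11 cytoplasm (5 libraries) and Col-0 cytoplasm (4 libraries). In all groups the fractions came from differential centrifugation, external control RNAs were added, ribosomal RNA was depleted and molecular identifiers were read. The labels name no mos11 allele, no hormone and no stress treatment.

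Abscisic acid is the hormone of drought, salt stress and seed dormancy. Without it, PP2Cs of this group hold the SnRK2 kinases inactive by removing their activating phosphates. Hormone bound to a receptor of the PYR/PYL family blocks the phosphatases, and the freed kinases phosphorylate transcription factors such as the ABFs and ion channels of guard cells such as SLAC1. Several of the phosphatase genes are themselves induced by the hormone, which closes a negative feedback loop, through promoter elements with the core ACGTG that ABF factors bind.

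Promoters of 4 phosphatase genes are printed because they set the strongest differences between genotypes beside the densest occurrence of that core. ABI1 had the smallest adjusted p and HAI1 the largest fold of the 10 genes in both fractions, while PP2CA and HAI2 were not called between genotypes. HAI2 was a low transcript, and its nuclear log2 fold change of 0.64 ± 0.31 was close to that of HAB1 (0.61 ± 0.12), which was called. The 4 were picked by these results and do not stand for all 7 phosphatases. Each sequence is the 250 bases before the annotated gene start, from RefSeq TAIR10.1, read 5′ to 3′ on the strand of the gene. Capitals mark ACGTG or its reverse complement CACGT.
ABI1 (chr4:13222377-13222626, minus strand): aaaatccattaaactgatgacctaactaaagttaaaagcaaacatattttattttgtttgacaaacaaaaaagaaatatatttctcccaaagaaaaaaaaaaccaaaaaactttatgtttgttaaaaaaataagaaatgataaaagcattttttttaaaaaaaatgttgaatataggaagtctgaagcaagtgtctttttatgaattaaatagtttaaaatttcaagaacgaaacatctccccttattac
HAI1 (chr5:23896940-23897189, minus strand): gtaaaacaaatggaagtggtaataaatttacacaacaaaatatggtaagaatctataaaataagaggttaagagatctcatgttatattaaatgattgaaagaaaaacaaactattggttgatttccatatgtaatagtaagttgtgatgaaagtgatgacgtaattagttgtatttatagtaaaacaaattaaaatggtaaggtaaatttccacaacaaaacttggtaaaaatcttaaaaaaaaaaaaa
PP2CA (chr3:3585851-3586100, minus strand): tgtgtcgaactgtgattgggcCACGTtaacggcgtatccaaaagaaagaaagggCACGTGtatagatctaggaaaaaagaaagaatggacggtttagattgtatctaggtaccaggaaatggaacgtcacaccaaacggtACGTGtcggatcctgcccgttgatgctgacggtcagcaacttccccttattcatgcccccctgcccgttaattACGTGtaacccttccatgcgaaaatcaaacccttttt
HAI2 (chr1:2282829-2283078, minus strand): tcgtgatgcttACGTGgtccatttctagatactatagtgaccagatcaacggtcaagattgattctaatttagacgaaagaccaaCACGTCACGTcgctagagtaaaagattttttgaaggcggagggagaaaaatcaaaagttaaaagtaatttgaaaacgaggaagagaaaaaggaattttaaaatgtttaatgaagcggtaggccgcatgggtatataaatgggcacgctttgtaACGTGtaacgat
The search counted matches on both strands, and matches that overlap, as in the palindrome CACGTG, were counted once. PP2CA and HAI2 had 4 such matches each, whereas ABI1 and HAI1 had 0. Among the other members, HAB2 had 2 matches, HAB1 and SNRK2.3 had 1 each, and ABI2, SNRK2.2 and SNRK2.6 had 0. In all, 5 of the 10 promoters held at least 1 match, among them 4 of the 7 PP2Cs, against 22.9% of 27418 protein-coding promoters of the same length. At least 2 matches were present in 3 of the 10, against 4.99% of all promoters. A match describes these letters in this window, and its absence says nothing of elements elsewhere. HAB1 and HAB2, which hold matches, were called higher in mos11 nuclei and in the mos11 cytoplasm, respectively. SNRK2.3, which also holds a match, was called lower in mos11 in both fractions. Whether matches go with differences between genotypes was not tested.

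Total counts per library were 1966574 to 18213517 in mos11 nuclei, 2547560 to 3719008 in Col-0 nuclei, 907270 to 1280371 in the mos11 cytoplasm and 556016 to 1160001 in the Col-0 cytoplasm. Levels are read counts scaled to library size with TMM factors (CPM), and a gene was called at an adjusted p below 0.05 over the 16207 genes tested (edgeR's quasi-likelihood test, Benjamini-Hochberg adjustment). Fold changes are on the log2 scale, given with an approximate standard error, for 5 mos11 and 4 Col-0 libraries. No label says that replicates were grown or fractionated separately, so the p-values measure only how far these libraries differ among themselves, which may be technical spread. MOS11 itself (AT5G02770) stood at 158 to 183 CPM in mos11 nuclei against 193 to 227 CPM in Col-0 nuclei, and at 4.61 to 11.1 CPM in the mos11 cytoplasm against 86.4 to 126 CPM in the Col-0 cytoplasm. All 5 mesophyll markers of the rosette were detected in every group. Cytoplasmic libraries were sequenced on both flow cells and nuclear ones on the first only, except mos11 nucleus replicate 2, which was on both and was the deepest. Without that library, every nuclear library compared came from the same flow cell.

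**Figure D1:**
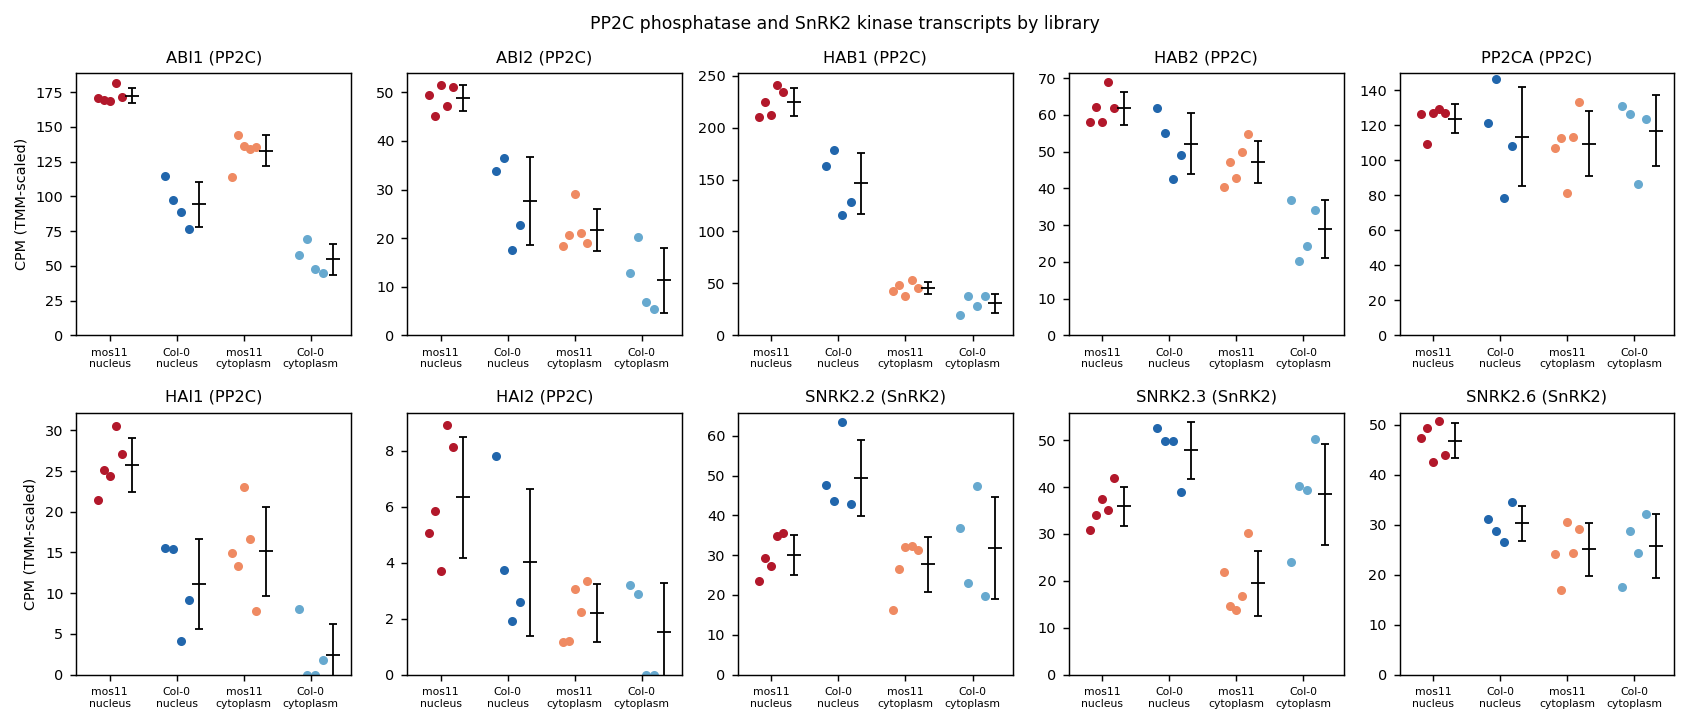
Level of each of the 10 genes in CPM (TMM-scaled, linear axis from 0) in every library, in the order mos11 nucleus, Col-0 nucleus, mos11 cytoplasm and Col-0 cytoplasm. Points are libraries, horizontal marks are group means and bars are 1 SD. ABI1, ABI2, HAB1 and HAI1 stand higher in mos11 nuclei than in Col-0 nuclei with no overlap, and PP2CA overlaps across all 4 groups.

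In the nucleus, 4 of the 7 phosphatase genes rose in mos11 and 0 fell, SNRK2.6 rose with them, and the other two kinases fell. Over all 10 genes, 5 were called higher and 2 lower in mos11, against 9.14% called higher and 10.9% called lower among all genes tested. The groups did not overlap for 5 genes on the higher side and 1 on the lower side, against 9.40% and 13.3% of all genes. The median log2 fold change was 0.64 over the 7 phosphatases and -0.07 over all genes tested. DESeq2 likewise called 4 phosphatases higher and 0 lower, and at an unadjusted p under 0.05 edgeR had 6 higher and 0 lower.

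ABI1 (AT4G26080, chromosome 4, 13219915 to 13222376, minus strand) encodes a phosphatase whose dominant mutation makes plants insensitive to the hormone. It stood at 171, 169.5, 169, 182 and 172 CPM in mos11 nuclei, against 115, 97.4, 88.4 and 76.4 CPM in Col-0 nuclei. Every mos11 library lay well above every Col-0 library, and the mos11 libraries were close to one another. The mean was 172.5 ± 5.27 CPM in mos11 and 94.3 ± 16.3 CPM in Col-0 (SD, n = 5 and 4), which is 1.83-fold higher (log2 fold change 0.87 ± 0.11, adjusted p = 3.05e-06). ABI1 overlaps the kinase gene AT4G26070 on the opposite strand by 22 bases. Whether counting used strand is not stated in the labels, so reads of that stretch cannot be told apart. AT4G26070 averaged 22.1 CPM in mos11 nuclei and 18.8 CPM in Col-0 nuclei and was not called (adjusted p = 0.286).

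ABI2 (AT5G57050, chromosome 5, 23087122 to 23089631, plus strand), the close paralogue of ABI1, stood at 49.5, 45.1, 51.5, 47.2 and 51.1 CPM in mos11 nuclei, against 33.9, 36.5, 17.5 and 22.7 CPM in Col-0 nuclei. The groups did not overlap, and Col-0 replicate 3 was the lowest library. ABI2 was 1.75-fold higher in mos11 (log2 fold change 0.81 ± 0.16, adjusted p = 0.000762). HAB1 (AT1G72770, chromosome 1, 27389948 to 27393327, plus strand), a phosphatase related to ABI1 that also represses the kinases, had 210.1, 225, 212.5, 241 and 234 CPM in mos11 nuclei, against 163, 179, 116 and 128 CPM in Col-0 nuclei. Again every mos11 library was above every Col-0 library (1.53-fold, log2 fold change 0.61 ± 0.12, adjusted p = 0.00061). How reads shared by such paralogues were counted is not stated in the labels.

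HAI1 (AT5G59220, chromosome 5, 23894404 to 23896939, minus strand), named for its strong induction by the hormone, was a low transcript with the largest nuclear fold of the 10 genes. It stood at 21.5, 25.1, 24.4, 30.6 and 27.1 CPM in mos11 nuclei, against 15.6, 15.5, 4.11 and 9.15 CPM in Col-0 nuclei. The groups did not overlap, although Col-0 replicates 3 and 4 were well below Col-0 replicates 1 and 2. HAI1 was 2.27-fold higher in mos11 (log2 fold change 1.19 ± 0.24, adjusted p = 0.000854). The sum over the group was 1062 counts in mos11 and 202 counts in Col-0.

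The remaining 3 phosphatase genes were not called in the nucleus. PP2CA (AT3G11410, chromosome 3, 3583782 to 3585850, minus strand), a phosphatase with a strong part in seed responses to the hormone, ranged over 109 to 129 CPM in mos11 and 78.3 to 146 CPM in Col-0 (log2 fold change 0.12 ± 0.14, adjusted p = 0.609). HAB2 (AT1G17550, chromosome 1, 6034270 to 6037398, plus strand), the paralogue of HAB1, ranged over 57.9 to 68.9 CPM in mos11 and 42.4 to 61.8 CPM in Col-0 (log2 fold change 0.24 ± 0.12, adjusted p = 0.158). For both genes the groups overlapped. HAI2 (AT1G07430, chromosome 1, 2280746 to 2282828, minus strand), a relative of HAI1, was the lowest of the 10 at 3.7 to 8.91 CPM in mos11 and 1.92 to 7.79 CPM in Col-0 (log2 fold change 0.64 ± 0.31, adjusted p = 0.158). Without Col-0 nucleus replicate 1, the highest Col-0 library, the log2 fold change was 1.11 with an adjusted p of 0.0138.

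Col-0 nucleus replicate 3 was the lowest Col-0 library for 6 of the 7 phosphatases, the exception being ABI1, and the highest for 0 of them. With Col-0 replicate 3 left out of both fractions, the nuclear counts were again 5 genes higher and 2 lower in mos11. The coefficient of variation across libraries was lower in mos11 nuclei for all 10 genes, with a median of 7.33% in mos11 and 19.7% in Col-0. A wider spread in Col-0 nuclei was also seen over all genes compared between replicate pairs. Relative to sampling alone, those pairs varied 1.177 to 2.404 times as much in mos11 nuclei. In Col-0 nuclei they varied 2.025 to 12.36 times as much. The spread of the 10 genes is therefore not shown to be particular to them. The fit shares a single spread per gene over all groups, while Col-0 has fewer libraries and a wider spread. The p-values between genotypes may therefore be too small, which was not tested.

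**Figure D2:**
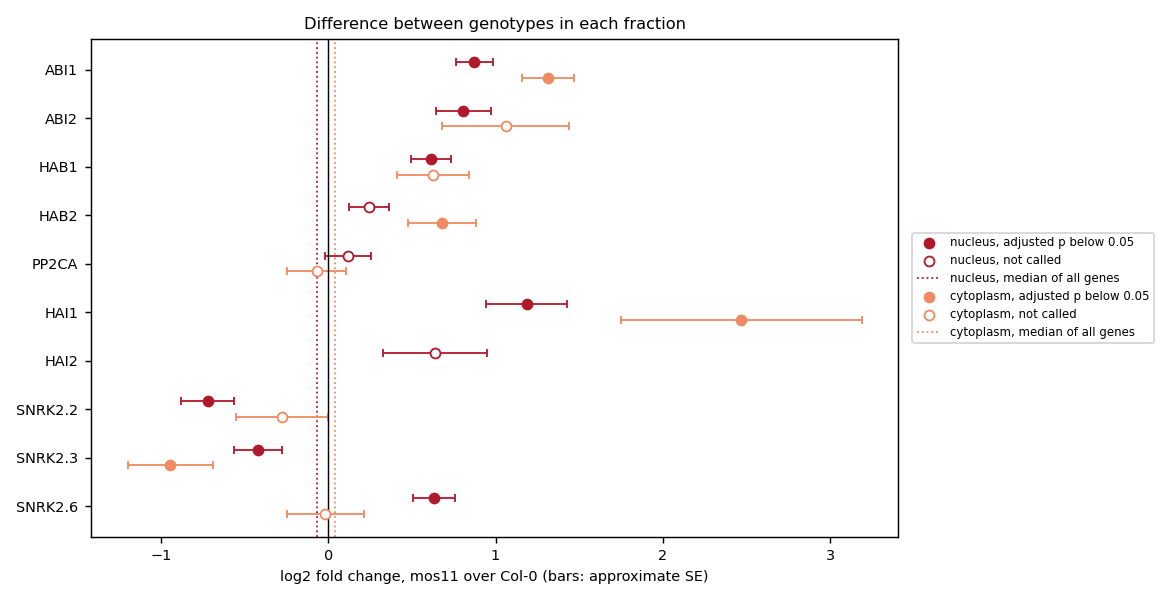
Log2 fold change of mos11 over Col-0 for each of the 10 genes in the nucleus (upper point, dark) and the cytoplasm (lower point, light), with approximate SE as bars. HAI2 has no cytoplasmic point, since no library had more than 3 counts. Filled points passed an adjusted p of 0.05 and dotted lines mark the medians over all 16207 genes. The 7 phosphatases lie right of 0 in the nucleus, and PP2CA in the cytoplasm lies just left of it at -0.07.

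The 3 kinases moved in different directions in the nucleus. SNRK2.6 (AT4G33950, chromosome 4, 16271745 to 16274825, plus strand), the kinase that closes stomata through SLAC1 in guard cells, stood at 47.3, 49.4, 42.6, 50.8 and 44.0 CPM in mos11 nuclei, against 31.2, 28.7, 26.6 and 34.6 CPM in Col-0 nuclei. The groups did not overlap, and SNRK2.6 was 1.55-fold higher in mos11 (log2 fold change 0.63 ± 0.13, adjusted p = 0.000622).

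SNRK2.2 (AT3G50500, chromosome 3, 18741444 to 18744174, minus strand) and SNRK2.3 (AT5G66880, chromosome 5, 26710302 to 26712971, plus strand) are close paralogues that act mainly in seeds, seedlings and roots. SNRK2.2 had 23.4, 29.3, 27.4, 34.8 and 35.5 CPM in mos11 nuclei, against 47.6, 43.8, 63.5 and 43.0 CPM in Col-0 nuclei. Here every mos11 library was below every Col-0 library (log2 fold change -0.72 ± 0.16, adjusted p = 0.00173). SNRK2.3 had 30.9, 34.0, 37.5, 35.0 and 41.9 CPM in mos11 nuclei, against 52.7, 49.7, 49.8 and 39.0 CPM in Col-0 nuclei. The highest mos11 library was above the lowest Col-0 library, and SNRK2.3 was called lower with a narrow margin (log2 fold change -0.42 ± 0.14, adjusted p = 0.0357). That call was lost in 9 of 26 alternative settings, among them the replicate block (adjusted p = 0.0549), scaling to total counts (adjusted p = 0.0732) and the omission of mos11 nucleus replicate 2, the library on both flow cells (log2 fold change -0.40, adjusted p = 0.104). The calls of ABI1, ABI2, HAB1, HAI1, SNRK2.2 and SNRK2.6 in the nucleus held in all 26. SNRK2.3 overlaps AT5G09785 and AT5G66890 on the opposite strand, which had 2 counts or fewer in every group.

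SNRK2.6 is known as a guard cell kinase, and some guard cell markers rose with it. The 7 markers of the list summed to 877 to 946 CPM per library in mos11 nuclei, against 634 to 709.7 CPM in Col-0 nuclei. Most of that sum was the myrosinase TGG1, with a mean of 677 of 916 CPM in mos11 and 518 of 684 CPM in Col-0. Of the 7, 4 rose in mos11 nuclei, led by MYB60 (0.81 ± 0.12, adjusted p = 2.11e-05) and FAMA (0.68 ± 0.16, adjusted p = 0.00281), transcription factors of guard cells. TGG1 rose by 0.39 on the log2 scale (adjusted p = 0.0219, but 0.0593 under the replicate block and 0.0728 without Col-0 nucleus replicate 4), and 0 markers were called lower. The call of the fourth, GC1 (AT1G22690, 0.53 ± 0.19, adjusted p = 0.0455), was kept in 15 of 26 settings, with an adjusted p of 0.127 without Col-0 nucleus replicate 3 and 0.158 without replicate 4. DESeq2 called 3 markers higher and 0 lower, and edgeR had 4 and 0 at an unadjusted p under 0.05. The other markers were not called: HT1 (0.42 ± 0.21) and KAT2 (0.31 ± 0.17) lay above 0 and GORK (-0.24 ± 0.14) below it. Channel genes listed as kinase targets did not rise. KAT1 was called lower (-0.60 ± 0.17, adjusted p = 0.013), and SLAC1 (0.19 ± 0.21) and QUAC1 (0.04 ± 0.20) were not called. No marker was at 0 in any group, and the part of these markers in the SNRK2.6 result was not tested. In such tissue samples, more cells of a type and more RNA per cell cannot be told apart.

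In the cytoplasm, ABI1, HAB2 and HAI1 rose in mos11 and SNRK2.3 fell. That is 3 genes called higher and 1 lower of 10, against 6.02% higher and 6.40% lower among all genes tested. The groups did not overlap for 3 genes on the higher side (ABI1, HAB1 and HAB2) and 0 on the lower side, against 5.47% and 5.26% of all genes. The median log2 fold change was 0.87 over 6 phosphatases, without HAI2, and 0.04 over all genes tested. Counts were lower here, down to single digits per library for ABI2, HAI1 and HAI2 in Col-0. HAB2 and SNRK2.2 were also down to 7 and 8 counts in Col-0 cytoplasm replicate 2. DESeq2 called 4 higher and 1 lower.

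ABI1 stood at 114, 144, 136, 134 and 135.5 CPM in the mos11 cytoplasm, against 57.5, 69.1, 47.4 and 44.8 CPM in the Col-0 cytoplasm. Every mos11 library was above every Col-0 library by a wide gap. The means were 133 ± 11.1 CPM in mos11 and 54.7 ± 11.1 CPM in Col-0 (SD, n = 5 and 4), and ABI1 was 2.49-fold higher (log2 fold change 1.31 ± 0.16, adjusted p = 2.88e-06). The call held in all 26 alternative settings, with log2 fold changes of 1.24 to 1.51 and adjusted p-values of at most 4e-04. The overlapping AT4G26070 was at 25 counts over 5 mos11 libraries and 6 counts over 4 Col-0 libraries.

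HAB2 had 40.4, 47.2, 42.9, 49.97 and 54.9 CPM in the mos11 cytoplasm, against 36.8, 20.2, 24.4 and 34.0 CPM in the Col-0 cytoplasm. The groups did not overlap, though the highest Col-0 library came close to the lowest mos11 library (log2 fold change 0.68 ± 0.20, adjusted p = 0.0252). The HAB2 call was lost in 6 of 26 settings, with an adjusted p of 0.115 under the replicate block and 0.0983 without Col-0 replicate 3 in either fraction. Omission of Col-0 cytoplasm replicate 2 or 3, or of mos11 cytoplasm replicate 4 or 5, also ended it (adjusted p of 0.0642, 0.111, 0.0514 and 0.0591).

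HAI1 was near the limit of detection in the Col-0 cytoplasm, with 5, 0, 0 and 1 counts in its 4 libraries, against 13, 11, 15, 15 and 7 counts in the 5 mos11 libraries. In CPM, the highest Col-0 library (0 to 7.99 CPM over the group) just exceeded the lowest mos11 library (7.84 to 23.0 CPM over the group). The fitted difference was called (log2 fold change 2.47 ± 0.72, adjusted p = 0.0226) but its size depended on single libraries. It was 4.53 without Col-0 cytoplasm replicate 1. It was 1.92 with an adjusted p of 0.103 without Col-0 cytoplasm replicate 3, and 2.33 with an adjusted p of 0.0656 without Col-0 cytoplasm replicate 4. A library with 0 counts allows up to 3 counts, which is 8.64 CPM in Col-0 cytoplasm replicate 2 and 4.07 CPM in replicate 3, for counting error only.

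ABI2 and HAB1 did not pass the threshold in the cytoplasm. ABI2 had 18.4, 20.6, 29.1, 21.1 and 19.0 CPM in mos11, against 12.8, 20.2, 6.78 and 5.38 CPM in Col-0, and Col-0 replicate 2 lay inside the mos11 range (log2 fold change 1.06 ± 0.38, adjusted p = 0.065). HAB1 had 42.7, 48.4, 38.3, 53.3 and 45.9 CPM in mos11, against 19.2, 37.4, 28.5 and 37.6 CPM in Col-0, with no overlap (log2 fold change 0.63 ± 0.22, adjusted p = 0.0549). Each was called in some of the 26 alternatives, ABI2 in 4 and HAB1 in 6. PP2CA, the most abundant of the 10 in the Col-0 cytoplasm, ranged over 81.2 to 133 CPM in mos11 and 86.7 to 131 CPM in Col-0 (log2 fold change -0.07 ± 0.18, adjusted p = 0.852). HAI2 was close to absent in the cytoplasm, with 9 counts over the mos11 libraries and 3 over the Col-0 libraries. No library of either genotype had more than 3, so no fold between genotypes is given or plotted for it there.

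Of the kinases, SNRK2.3 had 21.9, 14.5, 13.8, 16.7 and 30.2 CPM in the mos11 cytoplasm, against 24.0, 40.3, 39.3 and 50.2 CPM in the Col-0 cytoplasm. Most mos11 libraries were below the Col-0 ones, but mos11 replicate 5 and Col-0 replicate 1 crossed. SNRK2.3 was 1.93-fold lower in mos11 (log2 fold change -0.95 ± 0.25, adjusted p = 0.0135), and without Col-0 cytoplasm replicate 4 the adjusted p was 0.0794. SNRK2.2 ranged over 16.1 to 32.2 CPM in mos11 and 19.7 to 47.4 CPM in Col-0 (log2 fold change -0.28 ± 0.27, adjusted p = 0.569). SNRK2.6 ranged over 16.9 to 30.6 CPM in mos11 and 17.6 to 32.2 CPM in Col-0 (log2 fold change -0.02 ± 0.23, adjusted p = 0.983). Neither was called in any of the 26 settings. Of the 7 guard cell markers, 2 rose in the mos11 cytoplasm and 0 fell, TGG1 (0.89 ± 0.13) and MYB60 (1.02 ± 0.27, but adjusted p = 0.0893 without Col-0 cytoplasm replicate 3). The 7 summed to 537 to 728 CPM in the mos11 cytoplasm and 244 to 438 CPM in the Col-0 cytoplasm, of which TGG1 alone averaged 537 CPM in mos11 and 290.1 CPM in Col-0. GC1 stood on the other side of 0 without being called (-0.48 ± 0.36, adjusted p = 0.437), as did the potassium channel gene KAT2 (-0.45 ± 0.71), and HT1 and GORK had at most 3 counts in any cytoplasmic library.

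Because scaling between libraries does not enter a ratio taken within a library, the members were also set against each other in each library, per kilobase of exon. The summed level of the 7 phosphatases over that of the 3 kinases was 4.34 to 4.98 in mos11 nuclei, against 1.90 to 3.37 in Col-0 nuclei. In the cytoplasm it was 3.66 to 5.49 in mos11, against 1.45 to 2.93 in Col-0. The genotypes did not overlap in either fraction. Within the phosphatases, ABI1 made up 33.2 to 38.5% in the mos11 cytoplasm, against 17.4 to 23.8% in the Col-0 cytoplasm. PP2CA made up 27.6 to 39.5% in the mos11 cytoplasm, against 52.1 to 57.8% in the Col-0 cytoplasm. In nuclei, ABI1 made up 26.7 to 28.1% in mos11, against 19.0 to 26.7% in Col-0, so that the ranges met. Within the kinases, SNRK2.6 made up 32.7 to 42.7% in mos11 nuclei, against 16.8 to 26.6% in Col-0 nuclei, while the cytoplasmic ranges of 26.3 to 36.7% in mos11 and 19.5 to 28.1% in Col-0 overlapped. A ratio of this kind shows unequal change and not which of its genes moved.

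**Figure D3:**
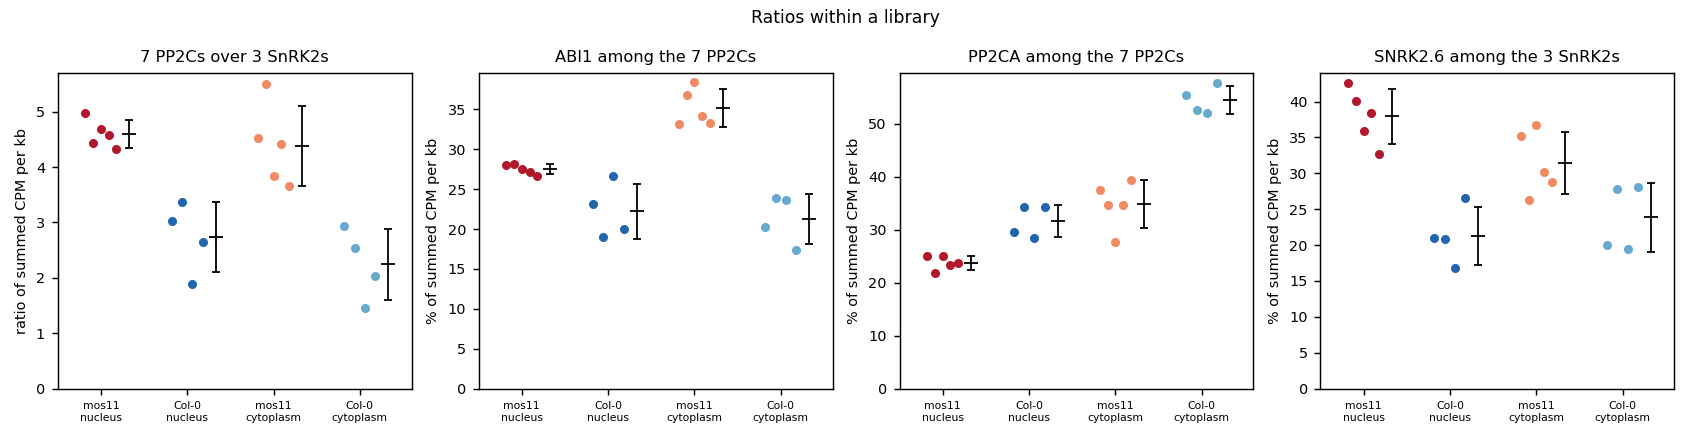
Ratios taken within each library from CPM per kilobase: the 7 phosphatases over the 3 kinases, the percentage of ABI1 and of PP2CA among the 7 phosphatases, and the percentage of SNRK2.6 among the 3 kinases. Points are libraries, horizontal marks are means and bars are 1 SD, on linear axes from 0. In the leftmost panel the mos11 libraries lie between 3.66 and 5.49 and the Col-0 libraries between 1.45 and 3.37.

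The genes were also ordered by mean CPM per kilobase within each group. In mos11 nuclei HAB1 led with 80.4 ± 4.85, beside ABI1 with 79.5 ± 2.43, which overlapped it, and PP2CA followed with 68.8 ± 4.57 (SD, n = 5). In Col-0 nuclei PP2CA led with 63.1 ± 15.8, followed by HAB1 with 52.5 ± 10.5 and ABI1 with 43.5 ± 7.5 (SD, n = 4), each overlapping the next. In the mos11 cytoplasm ABI1 with 61.3 ± 5.13 and PP2CA with 60.8 ± 10.4 overlapped at the top. In the Col-0 cytoplasm PP2CA stood alone with 65.0 ± 11.3, above ABI1 with 25.2 ± 5.1. Below these, SNRK2.6, HAB2, SNRK2.3, ABI2, SNRK2.2 and HAI1 formed one run in mos11 nuclei in which each overlapped the next. Col-0 nuclei had SNRK2.3 with 29.2 ± 3.69 and SNRK2.2 with 28.4 ± 5.5 next, overlapping each other and apart from HAB2 below them. HAI1 and HAI2 were lowest in all 4 groups.

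Between fractions, calls among the 10 genes were all toward the nucleus, but in both genotypes several genes stood near the middle of all genes. In Col-0 the log2 fold changes of PP2CA, SNRK2.6, SNRK2.3 and SNRK2.2 ranked at 43.1, 49.3, 50.6 and 55.5% of all genes tested. In mos11 those of SNRK2.2, PP2CA, ABI1 and HAB2 ranked at 48.3, 49.6, 54.8 and 55%, although ABI1 and HAB2 were called higher in the nucleus. In mos11, 8 were called higher in the nucleus and 0 lower, against 40.8% higher and 35.3% lower among all genes tested. In Col-0, 6 were called higher and 0 lower, against 40.6% and 32.8%. The fractions did not overlap for 7 genes in mos11, all higher in the nucleus, against 34.8% of all genes higher and 30.5% lower. In Col-0 they did not overlap for 3 genes (ABI1, HAB1 and HAB2), again all higher in the nucleus, against 36.1% and 27.6%. At an unadjusted p under 0.05 edgeR gave the same counts, and DESeq2 called 9 and 7 higher and 0 lower. The median of all genes was 0.18 in mos11 and 0.30 in Col-0 and moved by 0.23 and 0.18 with median-of-ratios scaling. Values near these medians therefore have no fixed direction. In Col-0 every cytoplasmic library was on both flow cells and every nuclear library on one, so that fraction and flow cell cannot be told apart.

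HAB1 had the largest fitted difference between fractions of the 10 in both genotypes. Its log2 fold change of nucleus over cytoplasm was 2.29 ± 0.14 in mos11 (adjusted p = 3.37e-14) and 2.301 ± 0.19 in Col-0 (adjusted p = 1.47e-11). ABI2 had 1.19 ± 0.21 in mos11 and 1.44 ± 0.33 in Col-0. HAI1 had 0.79 ± 0.31 in mos11 and 2.07 ± 0.69 in Col-0, the Col-0 value resting on 6 cytoplasmic counts (4.16 without Col-0 cytoplasm replicate 1, and an adjusted p of 0.056 without replicate 3). PP2CA had 0.16 ± 0.15 in mos11 and -0.02 ± 0.17 in Col-0, the lowest value of the 10 in Col-0, and neither was called. ABI1 had 0.38 ± 0.11 in mos11 and 0.82 ± 0.15 in Col-0, and HAB2 had 0.39 ± 0.14 in mos11 and 0.82 ± 0.19 in Col-0, all called.

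Among the kinases, SNRK2.3 was called higher in the nucleus in mos11 (0.85 ± 0.20) and not in Col-0 (0.33 ± 0.21), and SNRK2.6 likewise (0.91 ± 0.16 in mos11 and 0.27 ± 0.20 in Col-0). With median-of-ratios scaling both were also called in Col-0 (adjusted p of 0.0306 for SNRK2.3 and 0.0487 for SNRK2.6). SNRK2.2 had 0.11 ± 0.21 in mos11, the lowest of the 10 there and not called, and 0.56 ± 0.23 in Col-0 (adjusted p = 0.035), a call that was lost without Col-0 nucleus replicate 3 (adjusted p = 0.103) or Col-0 cytoplasm replicate 2 or 4 (0.0804 and 0.151). HAI2 had 1.48 ± 0.55 in mos11 and 1.54 ± 0.91 in Col-0, resting on 9 and 3 cytoplasmic counts. Only the mos11 value was called, and without mos11 cytoplasm replicate 1 its adjusted p was 0.0513. With scaling to total counts the Col-0 values moved up by a median of 1.25 over all genes, and all 10 members were then called higher in the nucleus in both genotypes.

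**Figure D4:**
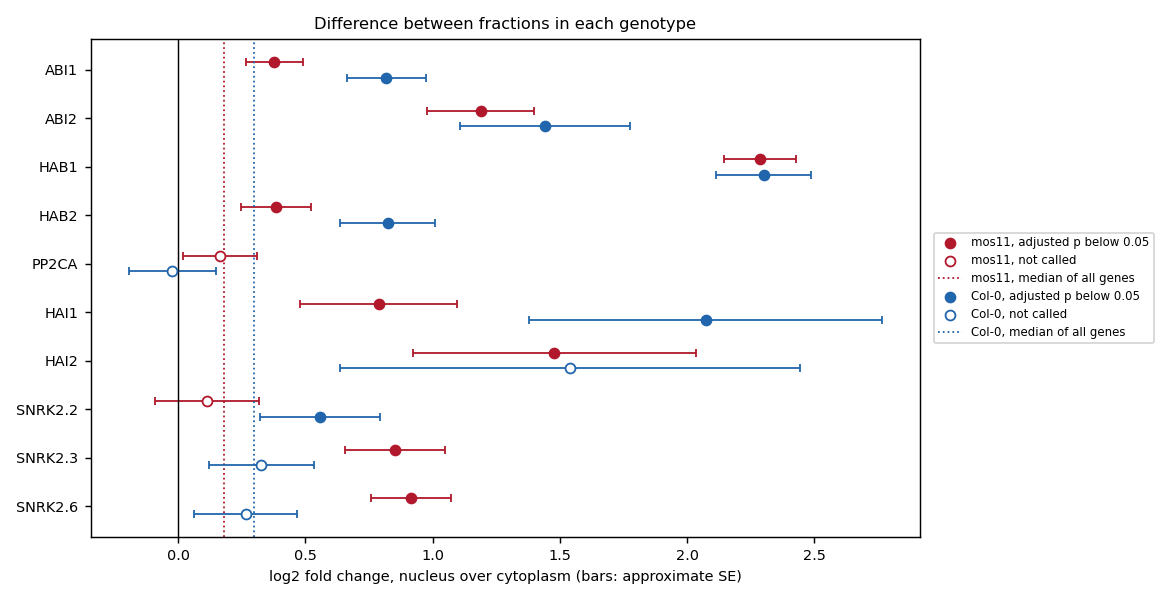
Log2 fold change of nucleus over cytoplasm for each of the 10 genes in mos11 (upper point) and Col-0 (lower point), with approximate SE as bars. Filled points passed an adjusted p of 0.05 and dotted lines mark the medians over all 16207 genes, 0.18 in mos11 and 0.30 in Col-0. HAB1 lies furthest right in both genotypes, and PP2CA lies next to 0 in Col-0.

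The comparison closest to an export defect asked whether the ratio of nucleus to cytoplasm differed between the genotypes (the interaction of genotype and fraction). Libraries were scaled on the genes themselves and not on the added control RNAs. A shift shared by most genes would be scaled away, so this comparison cannot show or exclude a general export defect. It can only call genes that depart from the rest. None of the 10 genes was called: edgeR gave 0 higher and 0 lower, and so did DESeq2, against 0.660% higher and 0.919% lower among all genes tested. At an unadjusted p under 0.05, edgeR had 1 gene higher, SNRK2.6 (0.65 ± 0.26, adjusted p = 0.226), and 1 lower, ABI1 (-0.44 ± 0.19, adjusted p = 0.265). For HAB1 the difference of ratios was -0.01 ± 0.24 and for PP2CA 0.19 ± 0.23. The standard errors were widest for HAI1 (-1.28 ± 0.83) and HAI2 (-0.06 ± 1.07), which had few cytoplasmic counts. The HAI1 value was the largest in size of the 10 and was still not called. What size of difference could be detected was not tested.

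By the rule for naming genes of like pattern, HAI1 was taken as the member whose interaction value was largest in size. Across the 18 libraries, the genes whose log2 CPM followed HAI1 most closely were BBX19, a B-box zinc finger gene (Pearson r = 0.954), AT5G48540 (0.937), AT4G20840 (0.931), the cytochrome P450 gene CYP706A5 (0.931) and the aminoalcohol phosphotransferase gene AAPT2 (0.927). The libraries fall into 4 groups that share genotype, fraction and depth, so these values describe likeness across groups as much as across libraries.

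The other genes of the pathway were taken from lists of known members. Of the PYR/PYL receptors, 9 of 14 were tested. In the nucleus 3 fell in mos11 and 0 rose: PYL4 (-0.45 ± 0.13), PYL1 (-0.43 ± 0.13) and PYL5 (-0.63 ± 0.21, adjusted p = 0.0328). DESeq2 called 2 lower and 0 higher, and at an unadjusted p under 0.05 edgeR had 4 lower and 1 higher. These receptor calls were narrow, and PYL5 kept its call in 16 of 26 settings. Among all genes tested, 10.9% were called lower and 9.14% higher in mos11 nuclei. The 9 receptors lay on both sides of 0 there, with a median log2 fold change of 0.04, beside -0.07 for all genes. In the cytoplasm PYR1 (-0.69 ± 0.14, adjusted p = 0.00138), PYL4 (-0.62 ± 0.14, adjusted p = 0.00313) and PYL5 (-1.06 ± 0.25, but adjusted p = 0.0589 without Col-0 cytoplasm replicate 3) fell. PYL2 rose there (1.503 ± 0.41, adjusted p = 0.0137), at 9.68 to 20.2 CPM in mos11 against 2.88 to 6.78 CPM in Col-0. The Col-0 level rests on few counts, since 1 count is worth 1.36 to 2.88 CPM in those libraries. PYR1 stood at 52.0 to 76.2 CPM in the mos11 cytoplasm, against 80.7 to 118 CPM in the Col-0 cytoplasm, with no overlap.

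The remaining phosphatases of the group, HAI3 and AHG1, were too low to be tested, at 0 to 0.493 and 2.67 to 3.38 CPM in mos11 nuclei against 0 to 0.806 and 0.559 to 4.38 CPM in Col-0 nuclei. Of the 7 other SnRK2 kinases, SNRK2.8 rose in mos11 in the nucleus, at 82.9 to 93.7 CPM against 17.8 to 53.8 CPM in Col-0 (1.30 ± 0.20, adjusted p = 2.81e-05). It was also called in the cytoplasm (1.37 ± 0.45, adjusted p = 0.0442), though in only 16 of 26 settings. SNRK2.9 fell in the nucleus (-1.496 ± 0.35, adjusted p = 0.00253) at levels below 10 CPM. Another list held 8 genes that act on the core proteins, most of them kinases or ligases. Of these, 0 were called in the nucleus by edgeR in either direction (0 higher and 1 lower at an unadjusted p under 0.05, and 0 higher and 2 lower by DESeq2). In the cytoplasm only the GSK3-like kinase BIN2 fell (-0.56 ± 0.15), and not without Col-0 cytoplasm replicate 3 (adjusted p = 0.129).

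Of the 13 targets and downstream regulators of the kinases, 10 were tested, and they went both ways in the nucleus, with 2 higher and 3 lower in mos11. ABF1, a transcription factor that the kinases phosphorylate, fell (-0.92 ± 0.20, adjusted p = 0.00176), as did the potassium channel gene KAT1 (-0.60 ± 0.17) and the homeobox gene HB6 (-0.49 ± 0.16), and AKS1, a regulator of KAT1, rose (0.65 ± 0.17, adjusted p = 0.00736). HB6 was not called without Col-0 nucleus replicate 3 (adjusted p = 0.106), and neither HB6 nor KAT1 without Col-0 nucleus replicate 4 (0.0999 and 0.0718). In the cytoplasm 3 rose and 0 fell: AKS1 (1.23 ± 0.28, adjusted p = 0.00372), ABF2 (1.02 ± 0.21, adjusted p = 0.00166) and ABF3 (0.53 ± 0.17, but adjusted p = 0.156 without Col-0 cytoplasm replicate 3). DESeq2 and an unadjusted p under 0.05 each gave 3 higher and 0 lower there.

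Of 17 tested genes known to be induced by the hormone, 6 rose in mos11 nuclei and 0 fell, with a median log2 fold change of 0.40 beside -0.07 for all genes (DESeq2 also 6 and 0, and at an unadjusted p under 0.05 edgeR had 10 higher and 1 lower). RD20, a lipid droplet protein of drought responses, stood at 17.9 to 24.5 CPM in mos11 nuclei, against 3.29 to 11.5 CPM in Col-0 nuclei (1.502 ± 0.24, adjusted p = 6.12e-05). The homeobox genes HB7 (0.97 ± 0.18, adjusted p = 0.000235) and HB12 (0.50 ± 0.12, adjusted p = 0.00308) and the NAC factor gene NAC019 (1.19 ± 0.25, adjusted p = 0.00122) rose as well.

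In the cytoplasm the same list split, with 3 rising and 2 falling. One of the 3, NAC019, was called by a narrow margin (adjusted p = 0.0489) at 1.12 to 6.13 CPM in mos11 against 0 to 1.36 CPM in Col-0, and in only 6 of 26 settings. RD29A (1.15 ± 0.27, adjusted p = 0.00528) and RD20 (1.20 ± 0.29, adjusted p = 0.00535), both drought-response genes, rose. The dehydrin gene RAB18 fell to 113 to 169 CPM in mos11, against 142 to 975 CPM in Col-0 (-1.99 ± 0.34, adjusted p = 0.000249), and the LEA protein gene LEA7 to 1.53 to 22.4 CPM against 5.42 to 147 CPM (-2.60 ± 0.55, adjusted p = 0.00218). For both, the lowest Col-0 library lay inside the mos11 range. Single libraries moved 2 of these values: LEA7 was at -1.96 without Col-0 cytoplasm replicate 4, and RD29A at 1.74 without Col-0 cytoplasm replicate 1.

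**Figure D5:**
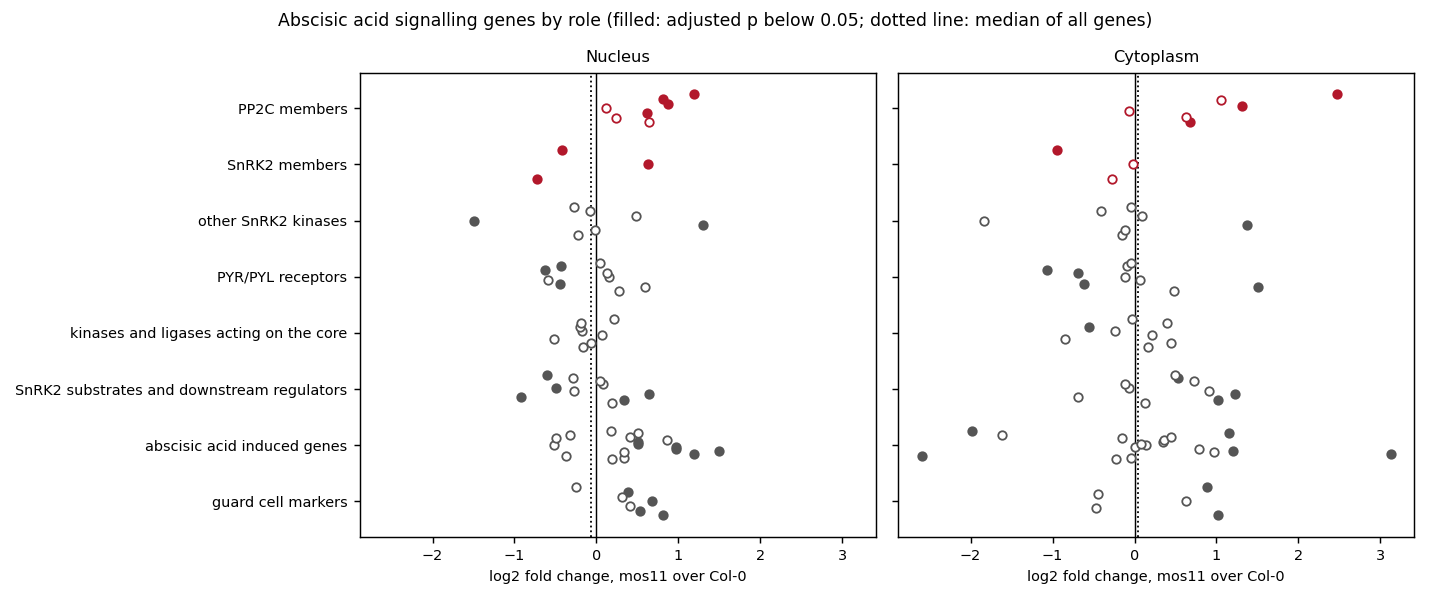
Log2 fold change of mos11 over Col-0 in the nucleus (left) and the cytoplasm (right) for the tested genes of the pathway lists, 1 row per role, leaving out in the cytoplasm HAI2, HT1 and GORK, which had at most 3 counts in any library. Filled points passed an adjusted p of 0.05, red points are the 10 genes described here and dotted lines mark the medians of all genes, -0.07 and 0.04. In the nucleus all 7 phosphatases lie right of 0. The receptors lie on both sides of it there, the called ones on the left. The hormone-induced genes spread to both sides in the cytoplasm.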

How the data were processed

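The deposited table holds whole-number counts per gene for 18 libraries, made by the authors from 28 sequenced samples, and no other value columns were present (0 unused). Tools given in the submitters' processing notes, with no roles, are featureCounts, UMI-tools, Picard and STAR 2.7.8a, with the build TAIR10. Not given in the sources used here are the strand setting, the handling of multiply mapped reads and whether a column sums both flow cells. All 30901 loci were found in RefSeq TAIR10.1, which gave positions, promoters and exon lengths.

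Counts were fitted in R 4.3.3 with edgeR 4.0.16 (limma 3.58.1): all 18 libraries in 4 groups, TMM scaling, filterByExpr (16207 genes kept), quasi-likelihood tests, and Benjamini-Hochberg adjustment over all genes tested, called at 0.05. Standard errors were approximated by dividing each log2 fold change by the root of its F statistic. The fit was also run on simulated data in which each gene had the same spread in all 4 groups. That run does not cover the wider spread of the Col-0 libraries, and no support is drawn from it. The members and lists were chosen with earlier results of these data known. All members are named, with up to 4 called genes per list and comparison by smallest p, and the 5 genes most correlated with the member of largest interaction. MOS11, AT4G26070 and the fragile calls were added to check these results.

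The counts of replicate pairs varied 1.18 (mos11 nuclei) to 12.4 (Col-0 nuclei) times as much as sampling alone gives, and none was treated as a copy. Same-numbered libraries of the Col-0 fractions deviated together (correlations of 0.194 to 0.599), so those numbers pair them. Between the mos11 fractions the correlations were small but all above 0 (0.0185 to 0.113), which does not settle whether those numbers pair. Between the genotypes the signs were mixed, in nuclei (-0.182 to 0.166) and in the cytoplasm (-0.0717 to 0.105), so no pairing was seen. Alternatives were median-of-ratios scaling, no filter, a filter of 1 CPM in 8 libraries, DESeq2 1.42.0, the replicate block, a fit of the compared groups alone, omission of Col-0 replicate 3, omission of each library, and total-count scaling, the last chosen after seeing the data. Depth limits the cytoplasm most, where 1 count is worth 1.11 to 2.88 CPM. Floors cover counting error only.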

Additional observations from a re-analysis of the deposited data

Results flagged for a closer look

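Dixon's criterion was applied to 68 sets of values, each from a group of 4 or 5 libraries. A set held the levels of 1 gene, or a sum, ratio or share of the phosphatase and kinase genes. In 4 sets a library stood apart from the rest, where chance gives about 1 in 20. All 4 were among the sets of single genes, which are fewer than 68. ABI1 reached 182 CPM in one mos11 nuclear library, with the next at 172 CPM. ABI2 reached 29.1 CPM in one mos11 cytoplasmic library, with the next at 21.1 CPM. PP2CA was at 109 CPM in one mos11 nuclear library, with the next at 127 CPM, and at 86.7 CPM in one Col-0 cytoplasmic library, with the next at 124 CPM.

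For 3 genes of the lists the ratio of nucleus to cytoplasm differed between mos11 and Col-0 in the interaction test, which called none of the 10 phosphatase and kinase genes. The receptor gene PYR1 had a log2 difference of 0.83 (adjusted p = 0.0181), the dehydrin gene RAB18 one of 2.16 (adjusted p = 0.0293, but 0.0822 without Col-0 cytoplasm replicate 4) and the light-harvesting gene LHCA3 one of 0.64 (adjusted p = 0.00363).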

How the results depend on the processing

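Over 26 settings (25 for the interaction), the values of the 10 genes kept direction and call 1185 times, lost a call 25 times, gained one 21 times and changed sign 41 times, each time from a value not called in the reported fit. The calls of ABI1 in both fractions, and of ABI2, HAB1, HAI1, SNRK2.2 and SNRK2.6 in nuclei, held in all of them. With the replicate block, 1 of the 10 genes was lower in mos11 nuclei (2 as reported), HAB2 lost its cytoplasmic call, and HAB1 had an interaction value of 0.040. The block called 1139 genes of all lower in mos11 nuclei (1772 as reported), 638 higher and 659 lower in the cytoplasm (976 and 1038), and 326 higher and 303 lower for the interaction (107 and 149). For the Col-0 fractions, where numbers pair the libraries, the block changed no call of the 10. Libraries correlated best with their own number in 7 of 8 cases there, in 5 of 10 between the mos11 fractions and in 2 of 8 between genotypes in each fraction, a hint from the data only.

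DESeq2 called 317 genes higher and 261 lower for the interaction, and omission of Col-0 replicate 3 gave 164 higher. Total-count scaling, chosen after seeing the data, gave 1 of the 10 lower in mos11 nuclei and 5 higher in the mos11 cytoplasm (3 as reported), where the calls over all genes shifted to 2027 higher and 527 lower. It gave 11060 higher and 2967 lower in the nucleus of mos11 (6613 and 5726 as reported), 11103 and 2703 in that of Col-0 (6587 and 5321), where all 10 genes were called higher (6 as reported), and 54 higher and 406 lower for the interaction. Omission of 1 library at a time gave 1 to 2 of the 10 lower in nuclei, 1 to 5 higher and 0 to 1 lower in the cytoplasm, and 58 to 150 higher and 67 to 199 lower over all genes for the interaction.

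Signs changed for PP2CA in nuclei (-0.026 without Col-0 replicate 3, -0.025 to 0.26 with 1 library omitted), PP2CA in the cytoplasm (0.13 with totals, -0.20 to 0.016), SNRK2.6 in the cytoplasm (0.18 with totals, -0.17 to 0.13) and SNRK2.2 in the cytoplasm (0.013 without Col-0 replicate 3, -0.46 to 0.021). PP2CA between the Col-0 fractions was 0.15 with DESeq2, 0.15 with median-of-ratios scaling, 0.11 with either other filter, 1.24 with totals and -0.18 to 0.12 with 1 library omitted. SNRK2.2 between the mos11 fractions was -0.024 to 0.28. For the interaction, HAB1 was 0.041 with DESeq2 and 0.042 with median-of-ratios scaling (-0.15 to 0.16) and HAI2 0.30 without Col-0 replicate 3 (-1.14 to 0.49). The cause was not tested for any of these.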

Other observations

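Markers of other cell types were listed beside the guard cell genes. The 5 mesophyll markers fell in the mos11 cytoplasm for 3 genes and rose for 0, while in nuclei 1 rose and 2 fell. LHCA3, a light-harvesting gene of photosystem I, stood at 5060.0 to 5871 CPM in the mos11 cytoplasm, against 9644 to 10250.0 CPM in the Col-0 cytoplasm. The 3 epidermis markers had 1 gene higher and 1 lower in mos11 in each fraction, and of the 2 phloem markers 0 were called between the genotypes (1 higher and 0 lower at an unadjusted p under 0.05 in each fraction by edgeR, and by DESeq2 1 higher and 0 lower for nuclei, 0 and 0 for the cytoplasm). The part of these markers in the results for the 10 genes was not tested.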
